A study of Mus musculus with 20 samples.

Results

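The SLC25 genes encode the mitochondrial carrier family, here the symbols formed by Slc25a and a number, leaving out Slc25a13 and Slc25a15. The rule found 38 genes among the 13319 symbols counted in every library, and 37 of them entered the tests. The remaining member, Slc25a31, an adenine nucleotide carrier best known from testis, had between 0 and 20 counts per library and was not tested. In counts scaled to library size (CPM), Slc25a31 averaged 0.191 ± 0.257 CPM in hybrid, 0.265 ± 0.147 in combination, 0.0563 ± 0.0417 in glucagon, 0.207 ± 0.141 in T3 and 0.305 ± 0.515 in control livers (SD, n = 4 each). Liver RNA came from 20 male mice on a western diet, each given its agent daily for 16 days, with 4 mice per group. The groups were hybrid (glucagon and T3 joined in 1 molecule), combination (glucagon together with T3), glucagon, T3 (triiodothyronine, the active thyroid hormone) and control. The labels write only a code for the hybrid, which was assigned because the other 4 names were taken. The sources used here give no strain, age or dose, and the controls are described by their name alone.

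SLC25 proteins sit in the inner mitochondrial membrane, with few exceptions, and exchange metabolites between cytosol and matrix. In hepatocytes they feed the urea cycle and gluconeogenesis with glutamate, malate and phosphate. They also export citrate for lipid synthesis, admit acylcarnitines for oxidation, and swap ADP for ATP. Glucagon acts through cAMP and protein kinase A, while T3 acts through nuclear receptors that bind DNA.

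Library totals ran from 6091917 to 23195658 counts, and the T3 libraries were the shallowest (6091917 to 7996156). Levels are CPM after TMM normalisation, given in order of replicate 1 to 4, with the mean ± SD (n = 4) in brackets. Changes are log2 ± SE from edgeR's quasi-likelihood test on all libraries, and a gene is called at an adjusted p under 0.05 over 12907 genes. Where a call ended in another analysis, the adjusted p found there stands in brackets after that analysis, and calls that another analysis gained are given for most comparisons whose value is printed. Hepatocyte markers (6 measured genes, including Alb, Apoa1 and Ttr) summed to 74762 to 105842 CPM in hybrid, 87564 to 139563 in combination, 152063 to 216723 in glucagon, 79274 to 122176 in T3 and 121562 to 241905 in control livers. The Kupffer cell list (8 of 8 measured, none at 0) summed to 907 to 1247, 931 to 1120.1, 379 to 524 and 1262 to 1583 CPM in the hybrid, combination, glucagon and T3 groups, and 555 to 888 CPM in control. Whether these shifts contribute to the carriers that moved between the same groups was not tested. In bulk liver, fewer cells of a type and less RNA per cell cannot be told apart. The biological coefficient of variation was 22.6% in hybrid, 18.9% in combination, 25.9% in glucagon, 19.3% in T3 and 43.1% in control livers. Control 1 had the lowest sample weight in limma (0.124) and stood apart from its group for Slc25a17 and Slc25a32. All T3 libraries ran in lane 5 and all others in lanes 1 to 4, so in every comparison with the T3 group, hormone and lane cannot be told apart.

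The glutamate carrier Slc25a22, the phosphate carrier Slc25a3 and the iron carrier Slc25a28 were higher than control in the hybrid, combination and glucagon groups, and were not called with T3. Slc25a12, Slc25a27, Slc25a29 and Slc25a30 were higher in the hybrid, combination and T3 groups, and were not called with glucagon. Slc25a37, an iron carrier of red cell precursors, was lower in those same 3 groups. Between 9 and 16 of the 37 tested carriers were called against control under each treatment. The hybrid had 12 carriers higher and 4 lower (43.2%), where 24.4% of all genes were called. The combination had 11 higher and 1 lower (32.4%, against 20.1% of all genes). Glucagon had 7 higher and 2 lower (24.3%, against 21.2%), a share near that of all genes. T3 had 8 higher and 4 lower (32.4%, against 18.0%). Higher calls over all genes made up 11.2% for the hybrid, 9.23% for the combination, 9.23% for glucagon and 7.31% for T3, beside lower calls of 13.2%, 10.9%, 11.9% and 10.6%. The carriers' median log2 change was 0.20 with the hybrid, 0.25 with the combination, 0.14 with glucagon and 0.12 with T3. Over all genes the medians were -0.05, -0.07, -0.09 and -0.05 in the same order. These comparisons share the 4 control libraries, so their counts are not independent. Slc25a34, Slc25a42 and Slc25a45 were called in all 4 of them, 18 carriers in some and 16 in none. Fits of the compared groups alone use each pair's own spread. They called 8 carriers for the hybrid, 10 for the combination, 6 for glucagon and 3 for T3. Calls over all genes fell as well in those fits, to 598 higher and 600 lower for the hybrid and 256 and 221 for T3. They fell to 462 and 413 for the combination and to 609 and 335 for glucagon. The fit of all libraries called 1440 genes higher and 1704 lower for the hybrid, and 944 and 1373 for T3. It called 1191 and 1407 for the combination, and 1191 and 1541 for glucagon.

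**Figure D1:**
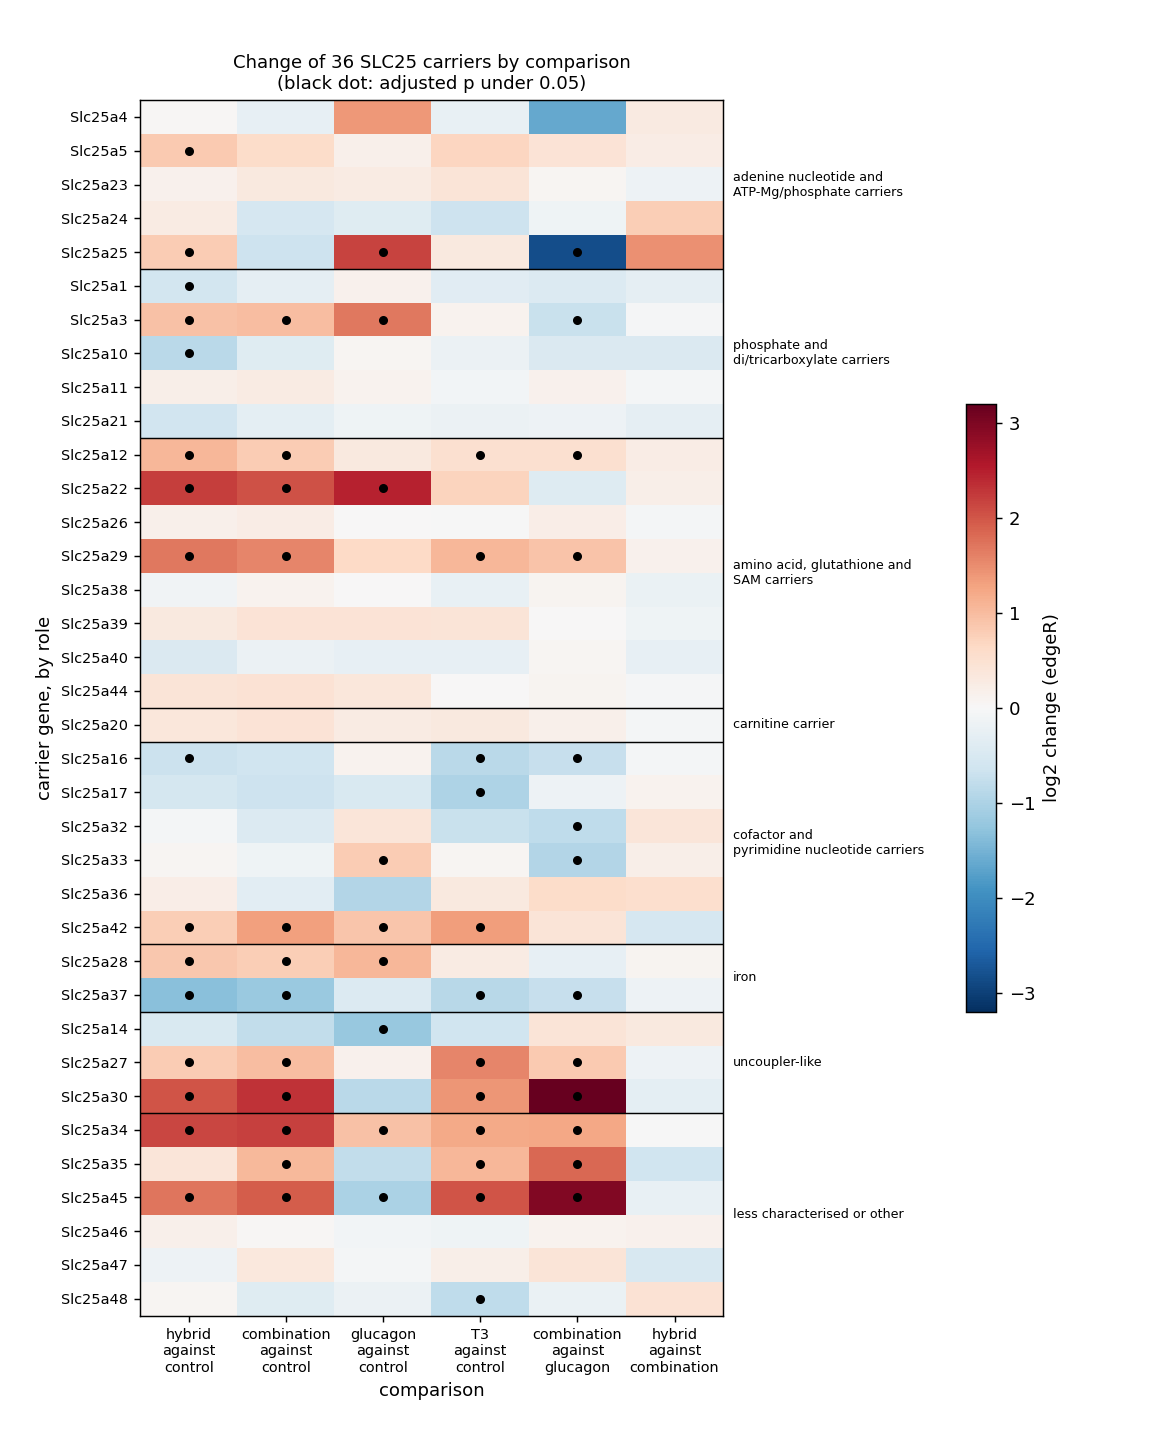
Log2 changes of 36 tested carriers (rows) in 6 comparisons (columns), in colour, with a dot where edgeR's adjusted p was under 0.05. Slc25a22 and Slc25a3 were higher in the hybrid, combination and glucagon groups, and Slc25a45 was lower in glucagon and higher in the 3 groups that received T3.

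Summed over the 38 members, carrier transcripts took 6763 ± 629 CPM in hybrid, 7009 ± 499.6 in combination, 8358 ± 527 in glucagon, 5607 ± 664 in T3 and 4605 ± 1114 in control livers (SD, n = 4 each). A few abundant members weigh most in this sum, so it does not describe a change of the whole family. Slc25a22 averaged 2364 CPM in glucagon and 434 in control livers, Slc25a3 850.0 and 264, and Slc25a25 782 and 174. Per kilobase of exon, Slc25a39, a carrier tied to mitochondrial glutathione, headed the controls at 266 CPM per kb. Slc25a1, Slc25a47, Slc25a10, Slc25a23 and Slc25a22 followed there at 162, 159, 128, 104 and 72.3 CPM per kb. Slc25a22 ranked highest per kilobase in hybrid (335 CPM per kb) and glucagon livers (395), and ranked 6 in control. These per-length orders rest on group means and were not tested. The length is that of all annotated exons of a gene, which can exceed the transcript present in liver. Whether counts rise with length in these libraries was not tested.

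Among the 8 carriers of amino acids, glutathione and S-adenosylmethionine, 3 were higher than control with the hybrid, 3 with the combination, 1 with glucagon and 2 with T3, and none was lower. Over all genes, 11.2% were higher with the hybrid, 9.23% with the combination, 9.23% with glucagon and 7.31% with T3. Slc25a22 (chromosome 7, 141429744 to 141437892 on GRCm38, minus strand) is the glutamate and proton symporter, which brings glutamate into the matrix. Slc25a22 measured 2388, 1763, 2028 and 1841 CPM (mean 2005 ± 278) in hybrid livers and 2006, 2226, 1448 and 1405 (1771 ± 408) in combination livers. Glucagon livers had 2488, 2433, 2118 and 2417 (2364 ± 167) CPM, T3 livers 796, 748, 545 and 748 (709 ± 112) and control livers 173, 616, 494 and 451 (434 ± 187). Every hybrid, combination and glucagon library lay above all T3 and control libraries, and control 1 was the lowest control. Its log2 change against control was 2.21 ± 0.28 (adjusted p = 1.04e-05) with the hybrid, 2.03 ± 0.27 (adjusted p = 3.18e-05) with the combination and 2.45 ± 0.28 (adjusted p = 2.48e-06) with glucagon. With T3 the value was 0.71 ± 0.27 (adjusted p = 0.0673), and it was called with DESeq2 (0.0399), with limma voom (0.035), without control 2 and glucagon 3 (0.0216) and without control 2 (0.0179). The hybrid also exceeded T3, by 1.50 ± 0.27 (adjusted p = 0.00211). Slc25a22 was 5.45 times as abundant in glucagon livers as in control livers, and every one of these 4 calls held in all alternative analyses run.

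Slc25a12 is the calcium-sensitive aspartate and glutamate exchanger known as aralar, part of the malate-aspartate shuttle. Slc25a12 measured 26.2, 27.8, 27.2 and 26.8 CPM (mean 27.0 ± 0.703) in hybrid livers and 23.1, 24.6, 20.7 and 23.7 (23.0 ± 1.65) in combination livers. Glucagon livers had 12.8, 15.0, 23.1 and 13.3 (16.0 ± 4.78) CPM, T3 livers 17.0, 19.7, 18.3 and 18.5 (18.4 ± 1.07) and control livers 14.5, 14.6, 12.3 and 10.6 (13.0 ± 1.94). Hybrid libraries were the highest and did not overlap those of any other group. The log2 change was 1.05 ± 0.16 (adjusted p = 1.00e-04) for the hybrid against control and 0.82 ± 0.16 (adjusted p = 0.00134) for the combination. The hybrid also exceeded glucagon by 0.75 ± 0.16 (adjusted p = 0.00182). T3 exceeded control by 0.50 ± 0.16 (adjusted p = 0.0415), a call that ended in a fit of the compared groups alone (0.161), with replicate as a block (0.0501) and without any 1 of control 3 and 4 and T3 replicates 1 to 4 (0.0603 to 0.0994). The combination exceeded glucagon by 0.52 ± 0.16 (adjusted p = 0.0244) and the hybrid exceeded T3 by 0.55 ± 0.16 (adjusted p = 0.0465). The call against glucagon ended without any 1 of glucagon 1, 2 and 4 and combination 1, 2 and 4 (0.057 to 0.0971). The call against T3 ended with RLE factors (0.0508), with replicate as a block (0.0557) and without any 1 of T3 replicates 1 to 4 and hybrid 1 to 4 (0.0707 to 0.129).

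Slc25a29 carries basic amino acids, chiefly arginine, lysine and ornithine. Slc25a29 measured 11.3, 8.1, 10.2 and 12.9 CPM (mean 10.6 ± 2) in hybrid livers and 9.12, 12.1, 9.86 and 7.52 (9.66 ± 1.91) in combination livers. Glucagon livers had 5.01, 4.79, 5.75 and 5.03 (5.14 ± 0.417) CPM, T3 livers 7.48, 7.86, 5.07 and 7.51 (6.98 ± 1.28) and control livers 2.57, 2.41, 4.9 and 3.54 (3.36 ± 1.14). Hybrid and combination libraries all lay above glucagon and control, and T3 replicate 3 lay below its group. Against control its log2 change was 1.68 ± 0.23 (adjusted p = 2.42e-05) with the hybrid, 1.55 ± 0.23 (adjusted p = 7.77e-05) with the combination and 1.07 ± 0.23 (adjusted p = 0.00386) with T3. With glucagon the value was 0.64 ± 0.23 (adjusted p = 0.051), and it was called with RLE factors (0.0494), with DESeq2 (0.033) and without control 3 (0.00669). It was higher in the hybrid than in glucagon by 1.04 ± 0.22 (adjusted p = 0.00164) and in the combination than in glucagon by 0.91 ± 0.22 (adjusted p = 0.00511). The T3 call ended in a fit of the compared groups alone (0.0734) and without control 1, control 2 and glucagon 3 (0.0657).

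Slc25a39 had the highest CPM per kilobase of exon in control livers, and no comparison called it. Slc25a39 measured 845, 779.9, 922 and 1079.8 CPM (mean 907 ± 129) in hybrid livers and 966, 1002, 1119 and 902 (997 ± 91.2) in combination livers. Glucagon livers had 979.7, 914, 934 and 1139 (992 ± 102) CPM, T3 livers 1088, 996, 864 and 942 (973 ± 94.1) and control livers 194, 766, 1006 and 968 (734 ± 375). Control 1 was below the other 19 libraries, whose values overlapped across groups. Slc25a44, a carrier of branched-chain amino acids, was not called in any comparison. Slc25a44 averaged 222 ± 22.3 CPM in hybrid, 228 ± 30.1 in combination, 214 ± 27.3 in glucagon, 168 ± 20.7 in T3 and 166 ± 53.1 in control livers. Without control 4 it was called with the hybrid, combination and glucagon (0.019, 0.017 and 0.032), and hybrid against T3 was called with limma voom (0.0231). Slc25a38, which supplies glycine for haem synthesis, was also not called: it averaged 22.9 ± 3.1 CPM in hybrid, 26.4 ± 2.47 in combination, 24.8 ± 1.97 in glucagon, 20.8 ± 2.1 in T3 and 24.8 ± 3.79 in control livers. Slc25a26 averaged 13.0 ± 1.81 CPM in hybrid, 13.7 ± 1.5 in combination, 11.8 ± 1.3 in glucagon, 11.7 ± 2.73 in T3 and 11.7 ± 1.81 in control livers. It imports S-adenosylmethionine and was not called. Slc25a40, a relative of Slc25a39, was near the lower end of detection, and its CPM averaged 1.29 ± 0.179 in hybrid, 1.54 ± 0.363 in combination, 1.48 ± 0.492 in glucagon, 1.51 ± 0.816 in T3 and 1.78 ± 0.484 in control livers.

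**Figure D2:**
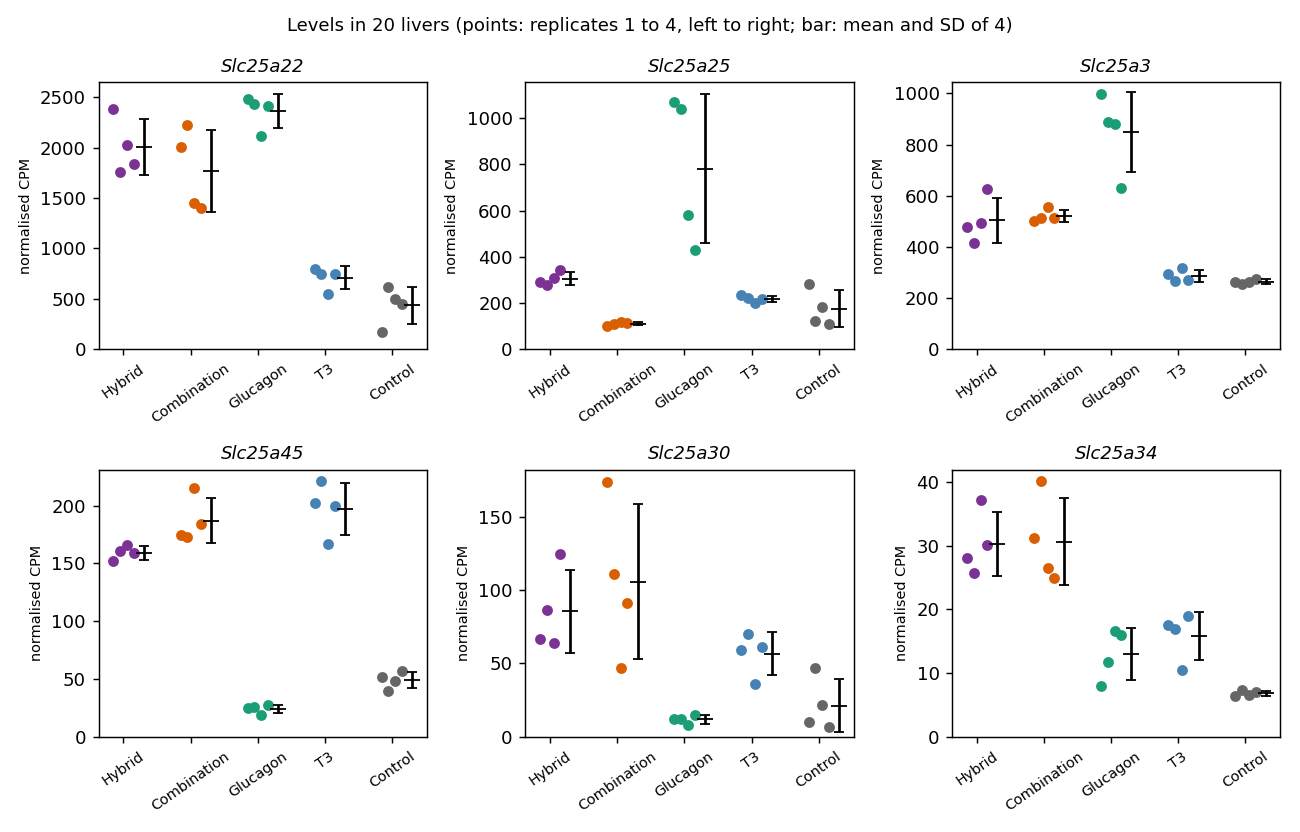
CPM per library (points) with the group mean and SD (line and bar) for Slc25a22, Slc25a25, Slc25a3, Slc25a45, Slc25a30 and Slc25a34, with hybrid, combination, glucagon, T3 and control from left to right. Slc25a25 reached 1071 and 1042 CPM in 2 glucagon libraries and 102 to 119 CPM in combination livers, and Slc25a45 stayed at 19.0 to 27.4 CPM in glucagon livers.

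Slc25a25 is 1 of 3 measured carriers that exchange ATP-Mg for phosphate under control of cytosolic calcium. It lies at chromosome 2, 32414487 to 32451445 (GRCm38, minus strand), and 4.8% of its exonic bases overlap Naif1 on the opposite strand. The sites bound by the cAMP-responsive factor CREB are TGACGTCA or the shorter TGACG. The bases upstream of 1 RefSeq start of Slc25a25 and of the start of Slc25a3 are shown. Both genes are among the 7 carriers called higher with glucagon, and the sequences of the others are not shown. Slc25a3 was picked too, and no other carrier window holds as many TGACG matches. For Slc25a25 the start was taken because its window holds TGACGTCA, so the match there was fixed by the choice. That start lies within the bounds of the gene given above, and the Slc25a3 start lies within 91116574 to 91124059, the bounds of that gene. Both sequences are from RefSeq on GRCm38.p6, read 5′ to 3′ on the minus strand, at chr2:32424067-32424316 and chr10:91123968-91124217. Capitals mark TGACGTCA in Slc25a25 and TGACG on either strand (CGTCA on the other) in Slc25a3.
Slc25a25: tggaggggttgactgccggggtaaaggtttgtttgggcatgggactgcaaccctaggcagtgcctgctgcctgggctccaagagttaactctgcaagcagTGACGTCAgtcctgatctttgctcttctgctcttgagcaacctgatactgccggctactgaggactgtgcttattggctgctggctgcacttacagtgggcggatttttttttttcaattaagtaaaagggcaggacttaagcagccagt
Slc25a3: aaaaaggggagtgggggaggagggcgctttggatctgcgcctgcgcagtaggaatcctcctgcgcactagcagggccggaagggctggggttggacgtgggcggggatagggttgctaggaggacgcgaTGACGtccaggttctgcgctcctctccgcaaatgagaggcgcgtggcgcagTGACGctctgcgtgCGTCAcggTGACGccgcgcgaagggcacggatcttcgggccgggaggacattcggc
The Slc25a25 match starts at position -150 relative to that start. In Slc25a3 the TGACG matches start at -121, -70, -56 and -48, and only the first lies outside the bounds of the gene. Windows of 300 bases (250 before and 50 after a start) were available for 30 carriers. TGACGTCA stood in windows of 2 of them, Slc25a25 and Slc25a36, and in 1.79% of all 32851 windows. TGACG, searched on both strands and contained in every TGACGTCA, stood in 11 of the 38 windows of these carriers, which belong to 10 of them, and in 20.812% of all windows. Of those 10, Slc25a3, Slc25a25, Slc25a28 and Slc25a33 were called higher with glucagon. Slc25a1, Slc25a14, Slc25a16, Slc25a36, Slc25a40 and Slc25a48 were not. Slc25a22, Slc25a34 and Slc25a42, also called higher with glucagon, had no match or no window. The CREB variant TGACGCAA (0.49% of all windows) and the DR4 repeat bound by thyroid hormone receptors (0.015%), both searched on both strands, had no match among the carriers. A match describes the letters and not binding.

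Slc25a25 measured 290.4, 277, 310.0 and 342 CPM (mean 305 ± 28.1) in hybrid livers and 102, 108, 119 and 112 (110.2 ± 7.21) in combination livers. Glucagon livers had 1071, 1042, 582 and 431 (782 ± 323) CPM, T3 livers 234, 220.1, 198 and 217 (217 ± 14.7) and control livers 284, 122, 183 and 108 (174 ± 80.2). All glucagon libraries lay above every other library, hybrid libraries lay between 277 and 342 CPM, and combination libraries lay below all of both groups. Against control, the log2 change of Slc25a25 was 2.16 ± 0.28 (adjusted p = 1.39e-05) with glucagon and 0.80 ± 0.27 (adjusted p = 0.0361) with the hybrid. With T3 it was 0.32 ± 0.27 (adjusted p = 0.442). With the combination it was -0.66 ± 0.27 (adjusted p = 0.0906), and that was called without control 2 and glucagon 3 (0.0414) and without control 2 or 4 (0.0475 and 0.0371). Relative to glucagon it was -1.36 ± 0.28 (adjusted p = 0.00114) in the hybrid and -2.83 ± 0.29 (adjusted p = 8.76e-07) in the combination, and combination livers fell below glucagon livers by a factor of 7.1. The departure of the combination from the summed hormone effects (combination minus glucagon minus T3 plus control) was -3.14 ± 0.39 (adjusted p = 6.00e-05). Control 1 had a Slc25a25 level of 284 CPM, within the hybrid range. The hybrid call against control ended in a fit of the compared groups alone (0.106), without control 2 and glucagon 3 (0.0873) and without any 1 of control 2, 3 and 4 and hybrid 1, 3 and 4 (0.0532 to 0.116).

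Hybrid and combination livers did not overlap for Slc25a25, with a log2 difference of 1.47 ± 0.28 (adjusted p = 0.0726). It was the highest of the 37 differences between those groups, yet edgeR did not call it. It was called with DESeq2 (2.23e-04), with limma voom (8.98e-04), in a fit of the compared groups alone (3.47e-04), without control 2 and glucagon 3 (0.0289) and without control 1, control 2 and glucagon 3 (0.00615). Slc25a23, the ATP-Mg carrier with the highest CPM per kilobase in control, was not called in any comparison. Slc25a23 averaged 602 ± 60.5 CPM in hybrid, 678 ± 118 in combination, 655 ± 94.0 in glucagon, 722 ± 109 in T3 and 548 ± 302 in control livers. Its 2 lowest libraries were control 1 and control 2, at 274 and 328 CPM, and T3 against control was called without control 3 (0.031). Slc25a24 averaged 4.68 ± 0.981 CPM in hybrid, 2.71 ± 0.656 in combination, 3.02 ± 0.675 in glucagon, 2.46 ± 0.32 in T3 and 3.88 ± 2.13 in control livers. Slc25a24 did not overlap between hybrid (3.97 to 6.08 CPM) and combination (1.73 to 3.06 CPM), with a difference of 0.79 ± 0.31 (adjusted p = 0.651). Hybrid against T3 was not called for it (0.92 ± 0.32, adjusted p = 0.0884), and was called with limma voom (0.0241), in a fit of the compared groups alone (0.0249), without control 2 and glucagon 3 (0.033) and without control 1, control 2 and glucagon 3 (0.0122).

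Slc25a4 exchanges ADP for ATP and is the form abundant in heart and skeletal muscle. Slc25a4 measured 7.67, 12.2, 8.21 and 18.8 CPM (mean 11.7 ± 5.11) in hybrid livers and 7.94, 8.85, 4.68 and 16.7 (9.54 ± 5.1) in combination livers. Glucagon livers had 4.77, 5.95, 101 and 7.55 (29.7 ± 47.3) CPM, T3 livers 9.32, 10.1, 12.4 and 6.71 (9.63 ± 2.34) and control livers 4.81, 26.5, 5.29 and 8.45 (11.3 ± 10.3). Glucagon 3 lay far above all others, and control 2, hybrid 4 and combination 4 were the next highest. The 8 skeletal muscle markers, including Acta1 and Ckm, summed to 2534 CPM in glucagon 3, 698 in control 2, 466 in hybrid 4 and 236 in combination 4, and to at most 51.7 CPM in any other library. No marker of that list was at 0 in every library of a group. Slc25a4 was not called in any comparison, and the part of the muscle RNA in its level was not tested. Slc25a5, the other ADP and ATP exchanger, had 33.8% of its 50-base windows in common with transcripts such as Gm5560, so its counts are uncertain. Slc25a5 measured 5.17, 5.42, 4.87 and 5.13 CPM (mean 5.15 ± 0.224) in hybrid livers and 3.67, 4.07, 5.42 and 4.36 (4.38 ± 0.75) in combination livers. Glucagon livers had 3.64, 2.78, 3.02 and 3.52 (3.24 ± 0.409) CPM, T3 livers 4.54, 4.98, 5.19 and 3.84 (4.64 ± 0.599) and control livers 4.81, 1.88, 2.35 and 2.49 (2.88 ± 1.31). Hybrid libraries lay above all glucagon and control libraries, by 0.83 ± 0.24 (adjusted p = 0.016) against control and 0.67 ± 0.24 (adjusted p = 0.0456) against glucagon. The call against control ended in a fit of the compared groups alone (0.118) and without control 2 and glucagon 3 (0.056). The call against glucagon ended with RLE factors (0.0539), with the lane as a block (0.0714), without control 2 and glucagon 3 (0.0685) and without any 1 of glucagon 1 to 4 and hybrid 1 to 4 (0.0625 to 0.127). Against control, Slc25a5 was 0.59 ± 0.24 (adjusted p = 0.0882) with the combination and 0.68 ± 0.25 (adjusted p = 0.06) with T3. The combination was called with limma voom (0.0234), without control 1, control 2 and glucagon 3 (0.0159) and without control 1 (0.00192), and T3 with limma voom (0.0157), without control 1, control 2 and glucagon 3 (0.0124) and without control 1 (0.00178).

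**Figure D3:**
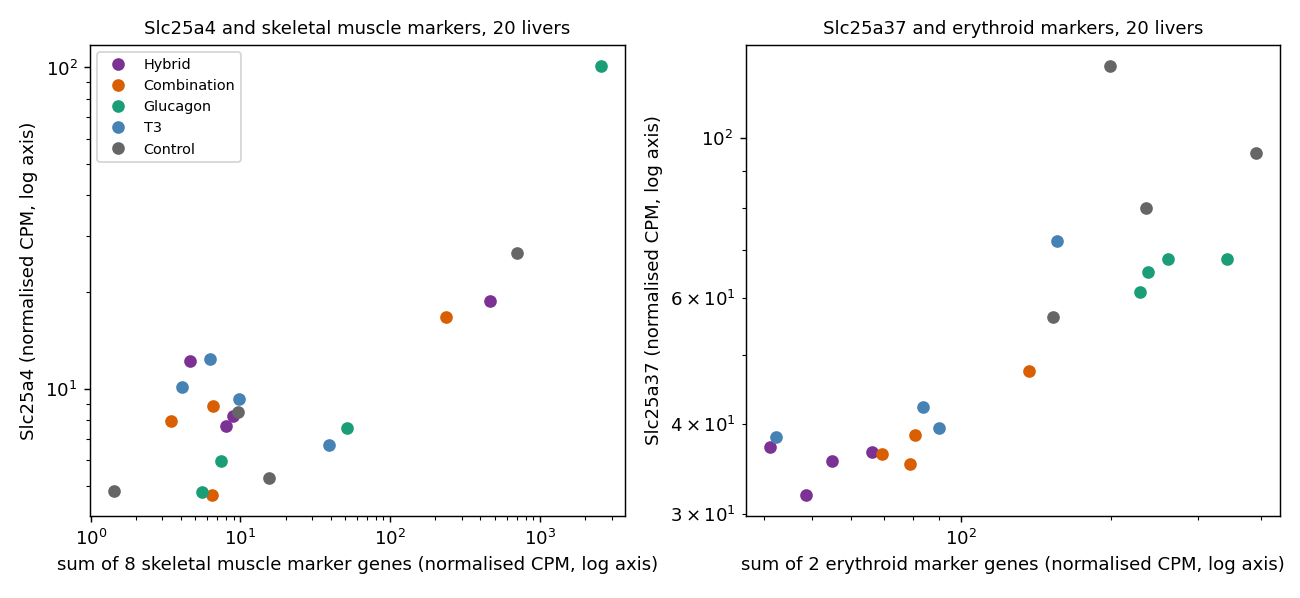
Carrier CPM against summed CPM of marker genes, on log axes, 1 point per library, for Slc25a4 with 8 skeletal muscle markers and Slc25a37 with 2 erythroid markers. The glucagon 3 library holds 101 CPM of Slc25a4 at a muscle sum of 2534 CPM, and the T3 library with the highest erythroid sum, 156 CPM, holds 72.0 CPM of Slc25a37.

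Slc25a3, the phosphate carrier that supplies ATP synthase with phosphate (chromosome 10, 91116574 to 91124059, minus strand), was higher with each treatment that held glucagon. Slc25a3 measured 476, 417, 494 and 628 CPM (mean 504 ± 88.7) in hybrid livers and 501, 513, 556 and 513 (521 ± 24.1) in combination livers. Glucagon livers had 999, 889.6, 882 and 629.8 (850.0 ± 156) CPM, T3 livers 294, 266, 316 and 271 (287 ± 22.9) and control livers 264, 254, 262 and 275 (264 ± 8.65). No T3 or control library reached the lowest value of the other 3 groups, and glucagon lay above all. Its log2 change against control was 0.93 ± 0.15 (adjusted p = 1.47e-04) with the hybrid, 0.98 ± 0.15 (adjusted p = 1.19e-04) with the combination and 1.69 ± 0.15 (adjusted p = 1.14e-07) with glucagon, beside 0.12 ± 0.15 (adjusted p = 0.602) with T3. Compared with glucagon it was lower in the hybrid, at -0.75 ± 0.15 (adjusted p = 9.46e-04), and in the combination, at -0.71 ± 0.15 (adjusted p = 0.00168). The hybrid exceeded T3 by 0.81 ± 0.15 (adjusted p = 0.00262). The departure from the summed glucagon and T3 effects was -0.83 ± 0.21 (adjusted p = 0.0286). That call ended with replicate as a block (0.0523), without control 2 and glucagon 3 (0.0692), without control 1, control 2 and glucagon 3 (0.0794) and without any 1 of glucagon 1, 2 and 3, T3 replicates 1 and 3 and combination 1, 2 and 4 (0.0535 to 0.0666).

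Slc25a1 exports citrate, which ATP citrate lyase splits for fatty acid synthesis. Slc25a1 measured 245, 190.0, 241 and 253 CPM (mean 232 ± 28.6) in hybrid livers and 282, 301, 332 and 223 (284 ± 45.9) in combination livers. Glucagon livers had 383, 418, 343 and 399.8 (386 ± 32.1) CPM, T3 livers 323, 301, 254 and 219 (274 ± 46.8) and control livers 284, 244, 538 and 339.7 (351 ± 130.4). All hybrid libraries lay below all glucagon libraries and overlapped the controls. The log2 difference was -0.73 ± 0.21 (adjusted p = 0.0124) for the hybrid against glucagon, a call that held in all alternatives. Hybrid against control gave -0.60 ± 0.20 (adjusted p = 0.0386), and that call ended in a fit of the compared groups alone (0.199), with the lane as a block (0.0716) and without any 1 of control 3 and 4 and hybrid 1 to 4 (0.0554 to 0.167). Slc25a10, the dicarboxylate carrier, exchanges malate or succinate for phosphate. Slc25a10 measured 312, 184, 244 and 240.2 CPM (mean 245 ± 52.5) in hybrid livers and 312, 347, 399 and 295 (338 ± 46.1) in combination livers. Glucagon livers had 444, 435, 467 and 509 (464 ± 33.2) CPM, T3 livers 552, 404, 271 and 328 (389 ± 122) and control livers 191, 287, 651 and 644 (443 ± 239). Hybrid libraries lay below all glucagon libraries, and controls ran from 191 to 651 CPM. It was lower in the hybrid, at -0.92 ± 0.30 (adjusted p = 0.0297) against glucagon and -0.86 ± 0.30 (adjusted p = 0.0435) against control. The first call ended without any 1 of glucagon 3 and 4 and hybrid 2, 3 and 4 (0.0513 to 0.0904). The second ended in a fit of the compared groups alone (0.198), with the lane as a block (0.0846) and without any 1 of control 3 and 4 and hybrid 2, 3 and 4 (0.092 to 0.156).

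Slc25a11, the oxoglutarate and malate exchanger of the malate-aspartate shuttle, ranged from 123 to 189.6 CPM over all libraries. Slc25a11 measured 187, 145, 163 and 166 CPM (mean 165 ± 16.9) in hybrid livers and 159, 189.6, 185 and 161 (174 ± 16.0) in combination livers. Glucagon livers had 160.4, 149, 163 and 157 (157 ± 5.94) CPM, T3 livers 146, 128, 148 and 127 (137 ± 11.1) and control livers 161, 123, 149 and 152 (146 ± 16.3). Only hybrid against T3 with limma voom (0.0296) called it, and 8.9% of its exonic bases overlap Rnf167 on the opposite strand. Slc25a21, the oxoadipate carrier of lysine and tryptophan breakdown, was not called either. Slc25a21 averaged 5.55 ± 1.83 CPM in hybrid, 6.89 ± 1.4 in combination, 7.73 ± 1.3 in glucagon, 7.59 ± 0.826 in T3 and 8.6 ± 2.92 in control livers. Hybrid against control was called without control 2 and glucagon 3 (0.0179), without control 1, control 2 and glucagon 3 (0.0351) and without control 2 (0.0183). Slc25a20, which exchanges carnitine for acylcarnitines ahead of fatty acid oxidation, was not called in any comparison. Slc25a20 measured 274, 192, 233 and 236 CPM (mean 234 ± 33.8) in hybrid livers and 260.5, 255, 252 and 214 (245 ± 21.2) in combination livers. Glucagon livers had 240.0, 214, 204 and 214 (218 ± 15.4) CPM, T3 livers 244, 235, 205 and 214 (224 ± 17.8) and control livers 107, 146, 267 and 207 (182 ± 70.2). The groups overlapped throughout, and control 1 and control 2 had the lowest values. Its log2 values against control were 0.36 ± 0.20 with the hybrid, 0.43 ± 0.20 with the combination, 0.26 ± 0.20 with glucagon and 0.30 ± 0.20 with T3. Without control 3 all 4 were called (0.0179, 0.0104, 0.0393 and 0.0325).

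Of the 7 carriers of cofactors and pyrimidine nucleotides, only Slc25a42, which imports coenzyme A, was called in all 4 comparisons with control. Slc25a42 measured 236, 197, 261 and 200.0 CPM (mean 223 ± 30.6) in hybrid livers and 346, 303, 337 and 311 (324 ± 20.6) in combination livers. Glucagon livers had 236, 246, 240.1 and 245 (242 ± 4.53) CPM, T3 livers 348, 395, 209 and 352 (326 ± 80.9) and control livers 94.2, 71.4, 213 and 142 (130.3 ± 62.8). Combination livers lay above all hybrid, glucagon and control livers, while T3 replicate 3 was the lowest T3 library and control 3 the highest control. The log2 change against control was 0.78 ± 0.25 (adjusted p = 0.0262) with the hybrid, 1.32 ± 0.25 (adjusted p = 9.19e-04) with the combination, 0.89 ± 0.25 (adjusted p = 0.0138) with glucagon and 1.33 ± 0.25 (adjusted p = 0.00138) with T3. The combination call held in all alternatives. The hybrid call ended in a fit of the compared groups alone (0.145), without control 2 and glucagon 3 (0.0671), without control 1, control 2 and glucagon 3 (0.263) and without any 1 of control 1 and 2 and hybrid 3 (0.051 to 0.0717). The glucagon call ended in a fit of the compared groups alone (0.0988), without control 2 and glucagon 3 (0.0543) and without control 1, control 2 and glucagon 3 (0.187). The T3 call ended in a fit of the compared groups alone (0.056).

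Slc25a16, tied to coenzyme A supply, was lower in the hybrid and T3 groups than in control, and lower in the hybrid and combination groups than in glucagon. Slc25a16 measured 104, 93.6, 77.0 and 73.4 CPM (mean 87.1 ± 14.4) in hybrid livers and 95.1, 105, 76.7 and 87.4 (91.1 ± 12.0) in combination livers. Glucagon livers had 152, 169, 149 and 139 (152 ± 12.7) CPM, T3 livers 73.3, 84.3, 68.1 and 84.9 (77.6 ± 8.29) and control livers 242, 92.4, 138 and 94.2 (142 ± 70.3). Every glucagon library lay above all hybrid, combination and T3 libraries, and control 1 was the highest of all. Against glucagon the log2 change was -0.81 ± 0.23 (adjusted p = 0.0138) in the hybrid and -0.74 ± 0.23 (adjusted p = 0.0242) in the combination. Against control it was -0.70 ± 0.23 (adjusted p = 0.0307) with the hybrid and -0.87 ± 0.23 (adjusted p = 0.0145) with T3. With the combination it was -0.64 ± 0.23 (adjusted p = 0.0556), called lower with DESeq2 (0.0336), without control 2 and glucagon 3 (0.0173) and without control 2 or 4 (0.016 and 0.0209). With glucagon it was 0.11 ± 0.23 (adjusted p = 0.778), called higher with limma voom (0.0469) and without control 1 (0.032). The combination call against glucagon ended without any 1 of glucagon 2 and combination 3 and 4 (0.0596 to 0.0744). The hybrid call against control ended with limma voom (0.152), in a fit of the compared groups alone (0.194), without control 1, control 2 and glucagon 3 (0.104) and without any 1 of control 1 and hybrid 2, 3 and 4 (0.0546 to 0.182). The T3 call ended with limma voom (0.124), in a fit of the compared groups alone (0.14) and without control 1 (0.0628).

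Slc25a33 imports pyrimidine nucleotides. Slc25a33 measured 17.0, 19.0, 22.5 and 22.5 CPM (mean 20.2 ± 2.7) in hybrid livers and 16.8, 17.1, 16.8 and 20.4 (17.8 ± 1.77) in combination livers. Glucagon livers had 37.8, 43.8, 23.5 and 31.4 (34.1 ± 8.73) CPM, T3 livers 20.6, 21.2, 16.2 and 22.2 (20.1 ± 2.68) and control livers 17.1, 20.7, 26.8 and 13.1 (19.4 ± 5.79). All hybrid and combination libraries lay below all glucagon libraries. The log2 difference from glucagon was -0.76 ± 0.20 (adjusted p = 0.00901) for the hybrid and -0.94 ± 0.20 (adjusted p = 0.00196) for the combination. Glucagon against control gave 0.82 ± 0.20 (adjusted p = 0.00645), and that call ended in a fit of the compared groups alone (0.0832). The departure from the summed effects was -0.99 ± 0.29 (adjusted p = 0.0614), called with DESeq2 (0.0259), with limma voom (0.00885), without control 2 and glucagon 3 (0.0194), without control 1, control 2 and glucagon 3 (0.0364) and without any 1 of control 2 and 3, glucagon 3 and T3 replicate 3 (0.0118 to 0.0484). Of its exonic bases, 14.9% overlap the antisense gene Gm13068. Slc25a32, a carrier of folate and flavin nucleotide, was called in the combination against glucagon. Slc25a32 measured 12.9, 12.0, 9.83 and 6.81 CPM (mean 10.4 ± 2.7) in hybrid livers and 8.59, 10.9, 6.16 and 6.4 (8.02 ± 2.22) in combination livers. Glucagon livers had 16.1, 14.6, 13.8 and 12.1 (14.2 ± 1.68) CPM, T3 livers 5.15, 7.21, 5.19 and 8.95 (6.62 ± 1.82) and control livers 15.7, 9.37, 9.21 and 9.05 (10.8 ± 3.26). Combination livers lay below all glucagon livers, at -0.82 ± 0.24 (adjusted p = 0.0195). That call ended without any 1 of glucagon 1 and combination 3 and 4 (0.0559 to 0.0684). T3 against control was -0.72 ± 0.25 (adjusted p = 0.0519), called lower with DESeq2 (0.0343), without control 2 and glucagon 3 (0.0489) and without any 1 of control 2, 3 and 4 and T3 replicate 4 (0.0378 to 0.0467).

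Slc25a17, a peroxisomal carrier of coenzyme A and related nucleotides, was called in T3 against control. Slc25a17 measured 31.0, 27.2, 29.1 and 22.8 CPM (mean 27.5 ± 3.55) in hybrid livers and 31.8, 25.5, 21.4 and 23.3 (25.5 ± 4.53) in combination livers. Glucagon livers had 36.0, 30.7, 25.2 and 22.8 (28.7 ± 5.87) CPM, T3 livers 16.6, 22.7, 22.1 and 21.1 (20.6 ± 2.77) and control livers 77.7, 31.7, 28.1 and 24.8 (40.6 ± 24.9). Control 1 lay far above the other controls, and all T3 libraries lay below all controls. The log2 change was -0.98 ± 0.28 (adjusted p = 0.0194), a call that ended with limma voom (0.201), in a fit of the compared groups alone (0.143), without control 1, control 2 and glucagon 3 (0.263) and without control 1 or without T3 replicate 1 (0.103 and 0.0622). The combination against control was called lower without control 3 or 4 (0.0349 and 0.0329). Slc25a36, a pyrimidine nucleotide carrier, held between 3 and 21 counts per library. Slc25a36 measured 1.14, 0.767, 0.722 and 0.653 CPM (mean 0.821 ± 0.219) in hybrid livers and 0.711, 0.319, 0.493 and 0.742 (0.566 ± 0.199) in combination livers. Glucagon livers had 0.239, 0.453, 0.503 and 0.302 (0.374 ± 0.124) CPM, T3 livers 0.613, 0.917, 0.944 and 1.12 (0.898 ± 0.21) and control livers 0.588, 0.917, 0.784 and 0.603 (0.723 ± 0.157). Hybrid libraries lay above all glucagon libraries, by 1.13 ± 0.37 (adjusted p = 0.0278). That call ended with DESeq2 (0.0776), with the lane as a block (0.0697) and without any 1 of glucagon 1 and 4 and hybrid 1 (0.0686 to 0.105).

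**Figure D4:**
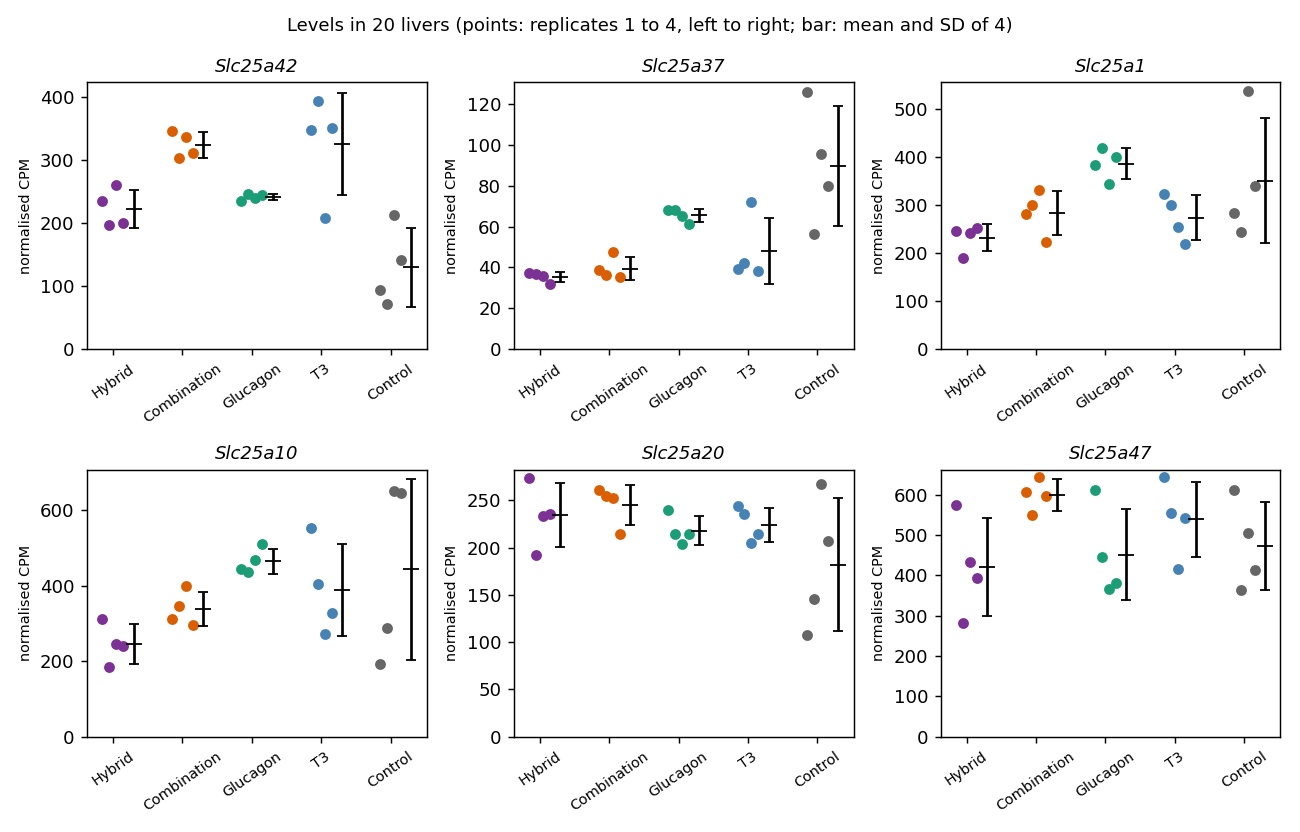
CPM per library (points) with the group mean and SD (line and bar) for Slc25a42, Slc25a37, Slc25a1, Slc25a10, Slc25a20 and Slc25a47, with hybrid, combination, glucagon, T3 and control from left to right. Hybrid livers held 31.9 to 37.2 CPM of Slc25a37 and 190.0 to 253 CPM of Slc25a1, below all glucagon livers in both cases.

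The mitoferrins Slc25a37 and Slc25a28 import iron, the first mainly in red cell precursors and the second in other cells. Slc25a37 measured 37.2, 36.6, 35.6 and 31.9 CPM (mean 35.3 ± 2.37) in hybrid livers and 38.6, 36.4, 47.5 and 35.2 (39.4 ± 5.57) in combination livers. Glucagon livers had 68.0, 68.0, 65.2 and 61.1 (65.6 ± 3.25) CPM, T3 livers 39.5, 42.2, 72.0 and 38.4 (48.0 ± 16.1) and control livers 126, 56.4, 95.4 and 80.0 (89.6 ± 29.3). Hybrid and combination libraries lay below all glucagon and control libraries, and T3 replicate 3 stood apart from its group. Against control the log2 change of Slc25a37 was -1.34 ± 0.21 (adjusted p = 1.37e-04) with the hybrid, -1.18 ± 0.21 (adjusted p = 5.67e-04) with the combination and -0.90 ± 0.21 (adjusted p = 0.00727) with T3. With glucagon it was -0.45 ± 0.21 (adjusted p = 0.134), and that was called without control 2 (0.0344). Against glucagon it was lower, at -0.89 ± 0.21 (adjusted p = 0.00411) in the hybrid and -0.73 ± 0.21 (adjusted p = 0.0158) in the combination. The T3 call ended in a fit of the compared groups alone (0.116).

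Erythroid markers measured here, Alas2 and Slc4a1, summed to 41.2 to 66.0 CPM in hybrid and 69.3 to 137 in combination livers. They summed to 229 to 342 CPM in glucagon, 42.3 to 156 in T3 and 153 to 392 in control livers. Of the 6 listed markers, 2 were measured and none was at 0. The groups low in Slc25a37 were also low in this sum, T3 replicate 3 was the highest T3 library in both, and the part of red cell RNA in Slc25a37 was not tested. Slc25a28 measured 43.8, 44.0, 53.1 and 55.8 CPM (mean 49.2 ± 6.2) in hybrid livers and 46.8, 48.6, 50.2 and 39.8 (46.4 ± 4.58) in combination livers. Glucagon livers had 49.9, 57.2, 55.8 and 60.7 (55.9 ± 4.5) CPM, T3 livers 35.4, 34.9, 26.5 and 32.0 (32.2 ± 4.07) and control livers 16.0, 24.1, 37.7 and 30.3 (27.0 ± 9.21). Glucagon, combination and hybrid libraries lay above every control library. The log2 change was 0.87 ± 0.19 (adjusted p = 0.0024) with the hybrid, 0.78 ± 0.19 (adjusted p = 0.00649) with the combination and 1.05 ± 0.19 (adjusted p = 5.18e-04) with glucagon, beside 0.26 ± 0.19 (adjusted p = 0.368) with T3. Hybrid against T3 gave 0.61 ± 0.19 (adjusted p = 0.0598), called with DESeq2 (0.0357), with limma voom (0.00162), in a fit of the compared groups alone (0.0176) and without control 1, control 2 and glucagon 3 (0.00474). The hybrid call ended in a fit of the compared groups alone (0.0578). The combination call ended in a fit of the compared groups alone (0.0915) and without control 1, control 2 and glucagon 3 (0.0635).

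Slc25a30, Slc25a27 and Slc25a14 resemble the uncoupling proteins, and Slc25a27 and Slc25a14 are best known from brain. Slc25a30 lies at chromosome 14, 75760117 to 75787037 (minus strand). Slc25a30 measured 66.8, 86.5, 64.1 and 125 CPM (mean 85.6 ± 28.1) in hybrid livers and 174, 111, 46.8 and 91.1 (106 ± 52.8) in combination livers. Glucagon livers had 12.1, 12.1, 7.97 and 14.7 (11.7 ± 2.78) CPM, T3 livers 59.4, 70.3, 36.0 and 61.2 (56.7 ± 14.6) and control livers 10.1, 46.6, 21.3 and 6.26 (21.1 ± 18.2). Every hybrid and combination library lay above all glucagon and control libraries, and all T3 libraries lay above all glucagon libraries. The log2 change against control was 2.01 ± 0.47 (adjusted p = 0.00371) with the hybrid, 2.32 ± 0.47 (adjusted p = 0.00167) with the combination and 1.42 ± 0.46 (adjusted p = 0.0385) with T3. With glucagon the value was -0.86 ± 0.47 (adjusted p = 0.201). Against glucagon it rose by 2.87 ± 0.49 (adjusted p = 2.29e-04) in the hybrid, 7.32 times as much, and by 3.18 ± 0.49 (adjusted p = 9.60e-05) in the combination. The T3 call ended in a fit of the compared groups alone (0.141) and without any 1 of control 1, 3 and 4 and T3 replicates 1, 2 and 4 (0.0518 to 0.114). Control 2, the library with the highest Slc25a30 of its group, had 46.6 CPM.

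Slc25a27 measured 5.22, 3.39, 6.13 and 8.59 CPM (mean 5.83 ± 2.16) in hybrid livers and 6.1, 4.95, 7.89 and 6.96 (6.47 ± 1.25) in combination livers. Glucagon livers had 3.28, 3.36, 4.02 and 3.82 (3.62 ± 0.358) CPM, T3 livers 10.7, 8.78, 11.0 and 7.99 (9.6 ± 1.45) and control livers 3.21, 3.04, 3.23 and 3.62 (3.28 ± 0.245). T3 libraries of Slc25a27 lay above all control and glucagon libraries, and hybrid replicate 2 lay within both. It was higher than control by 0.82 ± 0.23 (adjusted p = 0.0125) with the hybrid, 0.98 ± 0.23 (adjusted p = 0.00487) with the combination and 1.55 ± 0.23 (adjusted p = 1.53e-04) with T3. Glucagon against control gave 0.14 ± 0.23 (adjusted p = 0.692). Against glucagon it was higher by 0.68 ± 0.23 (adjusted p = 0.0342) in the hybrid and 0.84 ± 0.23 (adjusted p = 0.0111) in the combination. The hybrid call against control ended with limma voom (0.0681), in a fit of the compared groups alone (0.11), without control 1, control 2 and glucagon 3 (0.071) and without hybrid 4 (0.06). The hybrid call against glucagon ended in a fit of the compared groups alone (0.0734) and without any 1 of glucagon 1, 2 and 4 and hybrid 3 and 4 (0.0592 to 0.161). Hybrid against T3 gave -0.73 ± 0.22 (adjusted p = 0.0567), called lower with DESeq2 (0.0265), with limma voom (0.0117), with replicate as a block (0.0335), without control 1, control 2 and glucagon 3 (0.0347) and without hybrid 4 (0.0146). Slc25a14 measured 1.03, 1.04, 0.902 and 0.653 CPM (mean 0.907 ± 0.181) in hybrid livers and 0.592, 0.877, 0.74 and 0.742 (0.738 ± 0.117) in combination livers. Glucagon livers had 0.716, 0.582, 0.287 and 0.604 (0.547 ± 0.183) CPM, T3 livers 0.736, 0.524, 1.18 and 0.799 (0.81 ± 0.273) and control livers 2.14, 1.4, 0.98 and 0.528 (1.26 ± 0.685). Slc25a14 values lay near 1 CPM with wide scatter among controls. It was called lower in glucagon, at -1.21 ± 0.39 (adjusted p = 0.0325), and it ended with limma voom (0.437), in a fit of the compared groups alone (0.189), with the lane as a block (0.0586), without control 2 and glucagon 3 (0.142), without control 1, control 2 and glucagon 3 (0.845) and without any 1 of control 1 and 2 and glucagon 2, 3 and 4 (0.0592 to 0.14).

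Slc25a45 and Slc25a34 are carriers whose substrates are less settled. Slc25a45 lies at chromosome 19, 5877808 to 5885878 (plus strand). Slc25a45 measured 152, 161, 166 and 159 CPM (mean 159 ± 5.71) in hybrid livers and 175, 173, 215 and 184 (187 ± 19.5) in combination livers. Glucagon livers had 24.4, 25.9, 19.0 and 27.4 (24.1 ± 3.66) CPM, T3 livers 202, 221, 167 and 200.1 (197 ± 22.7) and control livers 51.3, 39.8, 47.8 and 57.2 (49.0 ± 7.29). All hybrid, combination and T3 libraries lay above every control, and every control lay above every glucagon library. The log2 change against control was 1.70 ± 0.14 (adjusted p = 1.29e-07) with the hybrid, 1.93 ± 0.15 (adjusted p = 9.23e-08) with the combination, -1.02 ± 0.14 (adjusted p = 3.23e-05) with glucagon and 2.01 ± 0.15 (adjusted p = 7.09e-08) with T3. Against glucagon it was higher by 2.72 ± 0.15 (adjusted p = 2.93e-10) in the hybrid and 2.95 ± 0.15 (adjusted p = 1.13e-10) in the combination, 6.61 and 7.74 times as much. The combination departed from the summed effects by 0.94 ± 0.20 (adjusted p = 0.00811). Each of these 7 calls held in all alternatives.

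Slc25a34 (chromosome 4, 141618824 to 141623821, minus strand) was higher than control with all 4 treatments. Slc25a34 measured 28.1, 25.7, 37.3 and 30.1 CPM (mean 30.3 ± 4.99) in hybrid livers and 31.2, 40.3, 26.6 and 24.9 (30.7 ± 6.9) in combination livers. Glucagon livers had 7.88, 11.7, 16.6 and 16.0 (13.0 ± 4.08) CPM, T3 livers 17.5, 16.9, 10.4 and 18.9 (15.9 ± 3.78) and control livers 6.31, 7.34, 6.57 and 6.94 (6.79 ± 0.448). Hybrid and combination libraries lay above all others, and controls held between 6.31 and 7.34 CPM, below all treated libraries. Against control its log2 change was 2.15 ± 0.23 (adjusted p = 2.03e-06) with the hybrid, 2.18 ± 0.23 (adjusted p = 2.37e-06) with the combination, 0.94 ± 0.23 (adjusted p = 0.00571) with glucagon and 1.22 ± 0.23 (adjusted p = 0.00132) with T3. The departure from the summed glucagon and T3 effects was 0.02 ± 0.33 (adjusted p = 0.985), with a 95% interval of -0.66 to 0.70. Against glucagon it was higher by 1.22 ± 0.22 (adjusted p = 4.42e-04) in the hybrid and 1.24 ± 0.22 (adjusted p = 3.99e-04) in the combination. The hybrid exceeded T3 by 0.93 ± 0.22 (adjusted p = 0.016), a call that ended without hybrid 3 (0.0586). The glucagon call ended with limma voom (0.0663) and without control 1, control 2 and glucagon 3 (0.0759).

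Of the exonic bases of Slc25a35, 31.3% overlap Rangrf on the opposite strand. The strand setting of the counting is not given, so whether Rangrf reads enter its count is not known. Slc25a35 measured 2.66, 2.35, 2.26 and 3.36 CPM (mean 2.66 ± 0.499) in hybrid livers and 3.43, 3.27, 4.68 and 5.29 (4.17 ± 0.978) in combination livers. Glucagon livers had 1.07, 1.1, 1.72 and 0.705 (1.15 ± 0.423) CPM, T3 livers 4.78, 4.06, 4.25 and 3.68 (4.19 ± 0.46) and control livers 1.6, 1.06, 1.37 and 4.15 (2.05 ± 1.42). Hybrid, combination and T3 libraries lay above all glucagon libraries, and control 4 was the highest of its group. Against glucagon it was higher by 1.18 ± 0.36 (adjusted p = 0.0203) in the hybrid and 1.83 ± 0.36 (adjusted p = 9.32e-04) in the combination. Against control it was 1.03 ± 0.34 (adjusted p = 0.0394) with the combination and 1.05 ± 0.35 (adjusted p = 0.0438) with T3. The hybrid call ended without any 1 of glucagon 1, 2 and 4 and hybrid 4 (0.0522 to 0.0663). The combination call against control ended with limma voom (0.198), in a fit of the compared groups alone (0.179), without control 2 and glucagon 3 (0.0877), without control 1, control 2 and glucagon 3 (0.299) and without any 1 of control 1, 2 and 3 and combination 1, 3 and 4 (0.0519 to 0.103). The T3 call ended with limma voom (0.203), in a fit of the compared groups alone (0.187), without control 2 and glucagon 3 (0.0851), without control 1, control 2 and glucagon 3 (0.309) and without any 1 of control 1, 2 and 3 and T3 replicates 1 to 4 (0.0655 to 0.114).

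Slc25a48, also of less settled substrate, was lower in T3 than in control and higher in the hybrid than in T3. Slc25a48 measured 9.35, 7.94, 8.39 and 9.99 CPM (mean 8.92 ± 0.925) in hybrid livers and 7.34, 8.38, 3.78 and 6.31 (6.45 ± 1.97) in combination livers. Glucagon livers had 6.51, 8.8, 6.68 and 7.95 (7.48 ± 1.09) CPM, T3 livers 5.76, 5.64, 2.71 and 5.11 (4.81 ± 1.42) and control livers 9.04, 5.94, 11.5 and 7.69 (8.53 ± 2.33). T3 libraries lay below all hybrid and control libraries. The log2 changes were -0.82 ± 0.26 (adjusted p = 0.0331) for T3 against control and 0.89 ± 0.26 (adjusted p = 0.0441) for the hybrid against T3. The first call ended with limma voom (0.11), in a fit of the compared groups alone (0.155) and without any 1 of control 1 and 3 and T3 replicates 3 and 4 (0.061 to 0.11). The second ended with replicate as a block (0.053) and without any 1 of T3 replicates 1 to 4 and hybrid 1 to 4 (0.0645 to 0.11). Slc25a47, a carrier enriched in liver, was not called in any comparison. Slc25a47 measured 574, 282, 432 and 394 CPM (mean 420.3 ± 121) in hybrid livers and 607, 549.6, 644 and 598 (599.6 ± 39.0) in combination livers. Glucagon livers had 612, 445, 365 and 382 (451 ± 113) CPM, T3 livers 643, 555, 417 and 543 (539.7 ± 93.1) and control livers 613, 363, 504 and 414 (473 ± 109.8). Its groups overlapped, and hybrid replicate 2 was the lowest library at 282 CPM. Combination against glucagon was called with limma voom (0.0371). Slc25a46, which acts at the outer membrane in mitochondrial fission and fusion, was not called. Slc25a46 averaged 33.7 ± 6.62 CPM in hybrid, 30.8 ± 1.75 in combination, 28.4 ± 3.96 in glucagon, 27.4 ± 2.02 in T3 and 29.9 ± 8.23 in control livers.

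Adding T3 to glucagon was compared with T3 alone, since combination against glucagon and T3 against control share no library. The combination had 7 carriers higher and 6 lower than glucagon (35.1%), where 22.5% of all genes were called, 12.4% higher and 10.2% lower. All 7 of the higher carriers were also higher with T3 against control, where they made up 87.5% of the 8. They were Slc25a12, Slc25a27, Slc25a29, Slc25a30, Slc25a34, Slc25a35 and Slc25a45. The T3 calls of Slc25a12, Slc25a29, Slc25a30 and Slc25a35 ended in a fit of the compared groups alone (0.161, 0.0734, 0.141 and 0.187). Other analyses that ended these calls are given with the levels. Over all genes, 542 were higher in both, 34.0% of the combination list and 57.4% of the T3 list. Of carriers lower in the combination than in glucagon, Slc25a16 and Slc25a37 were also lower with T3, 33.3% of the 6, and made up 2 of the 4 lower with T3. Slc25a3, Slc25a25, Slc25a32 and Slc25a33 were called lower in the combination than in glucagon and were not called with T3. Slc25a32 was called lower with T3 in the alternatives given with its levels, among them DESeq2 (0.0343). Their log2 values with T3 against control were 0.12 ± 0.15, 0.32 ± 0.27, -0.72 ± 0.25 and 0.05 ± 0.20. Over all genes, 471 were lower in both, 35.9% of the combination list and 34.3% of the T3 list.

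The departure of the combination from the summed glucagon and T3 effects was called for 3 of 37 carriers (8.11%), where 3.73% of all genes were called. Slc25a45 was above the sum (1.6% of all genes), while Slc25a25 and Slc25a3 were below it (2.14% of all genes). The median departure was 0.02 for carriers and 0.08 for all genes. The count was 5 with DESeq2, with limma voom, without control 2 and without control 3, and 2 with replicate as a block. Over all genes, DESeq2 called 306 above and 377 below the sum, limma voom 312 and 445, and the block 172 and 263. The main fit called 206 above and 276 below. Of the others, Slc25a30 was at 1.76 ± 0.65 (adjusted p = 0.163) and Slc25a22 at -1.13 ± 0.37 (adjusted p = 0.11). Slc25a22 was called below the sum with DESeq2 (0.0451), with limma voom (0.015), without control 2 and glucagon 3 (0.0389), without control 1, control 2 and glucagon 3 (0.0297) and without control 2 (0.0301).

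The hybrid was then set against the 2 hormones given together. No carrier was called, where 0.031% of all genes, 4 in number, were called. At an unadjusted p under 0.05 there were 4 of 37 carriers, beside 891 of the 12907 genes tested. DESeq2 and limma voom each called 1 carrier, Slc25a25. The differences ran from -0.65 ± 0.34 (Slc25a35) to 1.47 ± 0.28 (Slc25a25) on the log2 scale. Of the 37, 31 lay within 0.5 either way and 27 had a 95% interval within 1 either way. Libraries did not overlap for Slc25a12, Slc25a24, Slc25a25, Slc25a42 and Slc25a45, 13.5% of carriers and 7.31% of all genes. Slc25a42 was at -0.54 ± 0.25 (95% interval -1.05 to -0.02), Slc25a47 at -0.51 ± 0.22 (-0.96 to -0.06) and Slc25a24 at 0.79 ± 0.31 (0.15 to 1.43).

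**Figure D5:**
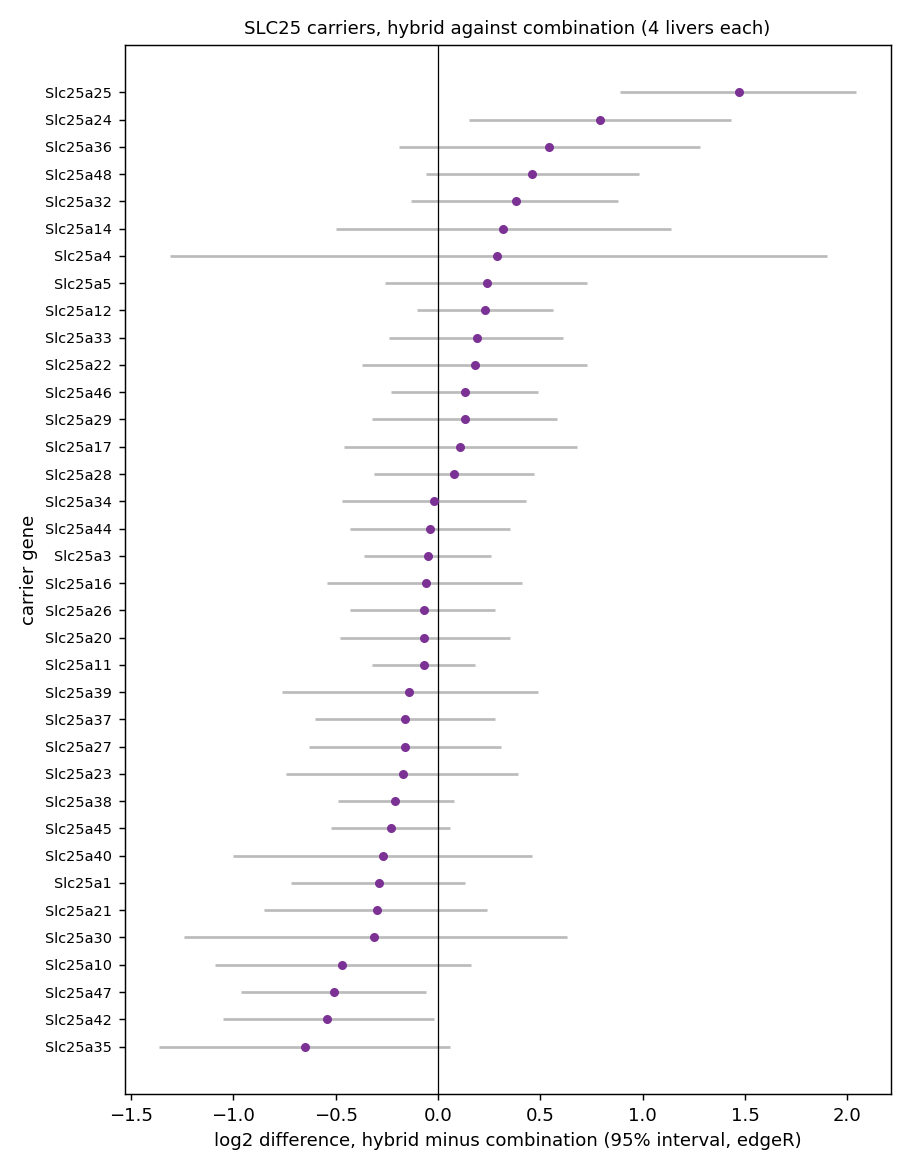
Log2 difference of hybrid over combination for 36 tested carriers, with 95% intervals. Slc25a25 lies furthest from 0, at 1.47, and 30 carriers shown lie within 0.5 of 0.

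Against glucagon, the hybrid had 9 carriers higher and 7 lower (43.2%), where 25.2% of all genes were called (13.6% higher, 11.7% lower). The higher carriers were led by Slc25a30, Slc25a45, Slc25a34 and Slc25a35, and the lower ones by Slc25a25, Slc25a10, Slc25a37 and Slc25a16. The median difference was -0.06 for carriers and -0.00 for all genes. Against T3, the hybrid had 5 higher and none lower (13.5%), where 6.36% of all genes were called, 3.69% higher and 2.67% lower. Those 5 were Slc25a22, Slc25a34, Slc25a48, Slc25a3 and Slc25a12. At an unadjusted p under 0.05 there were 15 of 37 carriers, beside 2857 of the 12907 genes tested. Limma voom called 10 carriers higher and 4 lower, the lower ones being Slc25a10, Slc25a27, Slc25a42 and Slc25a45. A fit without control 1, control 2 and glucagon 3 called 8 higher and 3 lower, DESeq2 6 and 1, the fit with replicate as a block 3 and 1, and a fit of the 2 groups alone 8 and 0. Over all genes, limma voom called 1277 higher and 1175 lower, where edgeR's fit of all libraries called 476 and 345. The other 4 called 1014 and 902, 645 and 546, 449 and 349, and 803 and 710 genes, in the order given. The count was 2 without hybrid 3, 4 without hybrid 4, and 3 without any other library of the 2 groups.

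Other genes of mitochondrial transport gave a setting for these values. SLC25 proteins without an Slc25a symbol include the uncoupling proteins, and 4 of 5 were tested. Ucp2, present in macrophages as well as other cells, was the only one called. Its log2 change was 0.97 ± 0.28 (adjusted p = 0.016) for the hybrid and 0.90 ± 0.28 (adjusted p = 0.0316) for T3 against control. Against glucagon, Ucp2 was higher by 1.20 ± 0.28 (adjusted p = 0.00386) in the hybrid and 0.93 ± 0.28 (adjusted p = 0.0212) in the combination. Ucp2 averaged 101 ± 19.1 CPM in hybrid, 83.9 ± 6.88 in combination, 44.1 ± 4.28 in glucagon, 96.4 ± 20.1 in T3 and 51.6 ± 26.8 in control livers. The Kupffer cell sum given above was highest in T3 livers, above all hybrid livers, and lowest in glucagon livers. The part of Kupffer cells in Ucp2 was not tested. Of 4 outer membrane genes, Vdac1, a voltage-gated pore, was lower in the hybrid than in glucagon, at -0.72 ± 0.23 (adjusted p = 0.0297), and no other comparison called a gene of that list.

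Carrier proteins reach the inner membrane through the TOM complex, small TIM chaperones and the TIM22 complex. Of 9 tested genes of that route, the hybrid against control had 3 higher and 0 lower, the combination 3 higher and 0 lower, glucagon 0 higher and 0 lower and T3 1 higher and 0 lower. Over all genes, 11.2% were higher with the hybrid, 9.23% with the combination, 9.23% with glucagon and 7.31% with T3. Timm10, a chaperone of carrier precursors, was higher with the hybrid by 0.88 ± 0.14 (adjusted p = 1.65e-04) and with the combination by 0.83 ± 0.14 (adjusted p = 3.87e-04). Tomm40, the outer membrane pore, was higher by 1.03 ± 0.25 (adjusted p = 0.00604) and 0.94 ± 0.25 (adjusted p = 0.0134), and Timm22 by 0.58 ± 0.15 (adjusted p = 0.01) and 0.49 ± 0.16 (adjusted p = 0.0317). Tomm22, a receptor subunit of TOM, was higher with T3 by 0.68 ± 0.20 (adjusted p = 0.0252). Against glucagon the route had 4 higher and 0 lower in the hybrid and 2 higher and 0 lower in the combination. Over all genes, 13.6% were higher than glucagon in the hybrid and 12.4% in the combination.

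Of 11 tested genes of other inner membrane transport, the hybrid had 1 higher and 2 lower, the combination 1 higher and 1 lower, glucagon 1 higher and 0 lower and T3 1 higher and 2 lower, each against control. All genes had 11.2% higher and 13.2% lower with the hybrid, 9.23% and 10.9% with the combination, 9.23% and 11.9% with glucagon, and 7.31% and 10.6% with T3. Letm1, a cation exchanger, was the higher one throughout, by 0.88 ± 0.16 with the hybrid, 1.08 ± 0.16 with the combination, 0.46 ± 0.16 with glucagon and 0.70 ± 0.16 with T3. Abcb10, a transporter of importance in red cell precursors, was lower, at -1.04 ± 0.25 with the hybrid, -0.95 ± 0.25 with the combination and -0.96 ± 0.26 with T3. The groups low in Abcb10 were those low in Slc25a37 and in the erythroid sum, whose part was not tested. Among 10 enzymes of the shuttles, the hybrid had 4 higher and 0 lower, the combination 3 higher and 0 lower, glucagon 4 higher and 0 lower and T3 2 higher and 2 lower. These counts are to be read against the same shares of all genes.

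Got1, the cytosolic aspartate aminotransferase of the malate-aspartate shuttle, was higher by 2.75 ± 0.30 (adjusted p = 2.22e-06) with the hybrid, 2.46 ± 0.29 (adjusted p = 7.48e-06) with the combination and 3.56 ± 0.31 (adjusted p = 6.66e-08) with glucagon. Its departure from the summed effects was -1.44 ± 0.39 (adjusted p = 0.0457). Mdh2, the matrix malate dehydrogenase, was higher by 0.64 ± 0.13, 0.65 ± 0.13 and 0.67 ± 0.13 in the same 3 comparisons. Gpd2, of the glycerol phosphate shuttle, was higher with all 4 treatments, between 0.74 ± 0.16 with glucagon and 0.93 ± 0.16 with the hybrid. Acly, which splits the citrate that Slc25a1 exports, was higher with glucagon by 1.37 ± 0.31 (adjusted p = 0.00359) and lower with T3 at -2.27 ± 0.32 (adjusted p = 9.77e-05). Against glucagon, Acly was lower in the hybrid, at -2.12 ± 0.32 (adjusted p = 7.13e-05) and in the combination at -1.97 ± 0.32 (adjusted p = 1.42e-04). Slc25a1 was lower than glucagon in the hybrid, and in the combination its value was -0.44 ± 0.20 (adjusted p = 0.135), which was called with limma voom (0.0116), in a fit of the compared groups alone (0.0282) and without control 1, control 2 and glucagon 3 (0.0415).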

How the data were processed

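RNA from 20 livers was extracted with a Qiagen kit and turned into sequencing libraries with Lexogen reagents, as the labels' protocols state. The deposited values are raw read counts for each symbol. The submitters' processing notes name HTSeq and the mm10 build, while the aligner, annotation, strandedness and HTSeq version are not given in the sources used. All 13319 symbols have 20 counts or more in some library, so rarer carriers are not seen. No 2 libraries were identical.

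Counts were tested with edgeR 4.0.16 in R 4.3.3. Genes were kept by filterByExpr (minimum count 10, minimum total 15), which left 12907 and dropped 412. TMM scaling and a quasi-likelihood fit of 5 group means over all 20 libraries followed (15 residual degrees of freedom, common dispersion 0.077). Each of 9 contrasts was adjusted by Benjamini-Hochberg over all tested genes. The fit was also run on simulated counts with a common dispersion for all genes and groups. The wider spread of the control livers was not simulated, so that run does not bear on it. The mice are the replicates. The SE of a change was taken as its absolute log2 value divided by the square root of the test's F statistic. Intervals are 95% confidence intervals for the contrast of group means built from that SE. They rest on the spread between these livers and do not give its range.

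Replicate numbers 1 to 4 mark lanes 1 to 4 in 4 groups, per the labels, so they pair libraries there. Over 24 same-lane pairs, deviations from group means correlated between -0.318 and 0.462. A block for the number was tried as an alternative, and its value stands beside each call it changed. In comparisons with the T3 group and in the departure, that block took in all 20 libraries. The T3 numbers mark no lane, so there the block pairs T3 libraries with others by number only. Further alternatives used DESeq2 1.42.0, unfiltered counts, RLE scaling, limma 3.58.1 (voom with sample weights), a fit of the compared groups alone, and leaving out libraries. Leaving out control 1, control 2 and glucagon 3 together was chosen after seeing the data.

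The members and lists were chosen with earlier results of these data known. Values per library are given for called carriers with the 5 largest changes per direction and comparison and for a panel of 17 carriers, of which 1 symbol is not in the tables used here. Of other transport genes, up to 3 called members of smallest p per list and comparison could be named. Positions and exon lengths are from GENCODE M21 on GRCm38, matched by symbol, and promoter windows from RefSeq on GRCm38.p6. Protein sequences were not used here. The values of 1 tested carrier, which stays in the counts, and of 1 marker are not reported here.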

Additional observations from a re-analysis of the deposited data

Results flagged for a closer look

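Among 185 sets of 4 libraries (37 carriers in 5 groups), 10 had a library set apart from the other 3, 5.41%, where chance flags about 1 in 20. Slc25a4 stood at 101 CPM in glucagon 3 and at 26.5 CPM in control 2, the libraries with the highest sums of skeletal muscle markers in their groups. Slc25a37 stood at 72.0 CPM in T3 replicate 3, the T3 library with the highest erythroid sum, and Slc25a29 was low there at 5.07 CPM. In control 1, Slc25a17 stood high at 77.7 CPM and Slc25a32 at 15.7 CPM. Combination replicate 3 was low in Slc25a24, at 1.73 CPM, and combination replicate 4 was high in Slc25a33, at 20.4 CPM. Glucagon 3 was low in Slc25a26, at 9.84 CPM, and glucagon 1 was high in Slc25a40, at 2.21 CPM.

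The effect of adding T3 differed with and without glucagon for 3 carriers in edgeR's test of the departure. The departure was -3.14 ± 0.39 (adjusted p = 6.00e-05) for Slc25a25, -0.83 ± 0.21 (adjusted p = 0.0286) for Slc25a3 and 0.94 ± 0.20 (adjusted p = 0.00811) for Slc25a45, on the log2 scale. Hormone and lane cannot be told apart in this test.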

How the results depend on the processing

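No value of a called carrier changed sign under any alternative. Of 86 called pairs of carrier and comparison, 51 kept their call under every alternative and 35 lost it under 1 or more, 4 of these only in fits of the compared groups alone. Fits of the compared groups alone called 3 carriers in T3 against control, where the 5-group fit called 12, and 8 in hybrid against control, where it called 16. In combination against control the count was 10 in place of 12, and in glucagon against control 6 in place of 9. Over all genes those fits called 256 higher and 221 lower with T3, where the 5-group fit called 944 and 1373. With the hybrid they called 598 genes higher and 600 lower, where the 5-group fit called 1440 and 1704. With the combination they called 462 and 413, in place of 1191 and 1407, and with glucagon 609 and 335, in place of 1191 and 1541. For hybrid against combination the count was 1 in place of 0 with DESeq2, with limma voom, in the compared groups alone, without control 2 and glucagon 3, and without control 1, control 2 and glucagon 3. For hybrid against T3 the count of 5 became 14 with limma voom, 8 with the compared groups alone and 11 without control 1, control 2 and glucagon 3. Over all genes the calls there rose as well, from 476 higher and 345 lower. They became 1277 and 1175, 803 and 710, and 1014 and 902, in that order. For the departure the count of 3 became 5 with DESeq2 and with limma voom. Over all genes the departure was called for 206 above and 276 below the sum, 306 and 377 with DESeq2, and 312 and 445 with limma voom. With single libraries left out there were 11 to 16 calls for hybrid against control, 11 to 18 calls for combination against control, 8 to 12 calls for glucagon against control, 8 to 13 calls for T3 against control, 10 to 13 calls for combination against glucagon, 0 calls in each case for hybrid against combination, 11 to 14 calls for hybrid against glucagon, 2 to 4 calls for hybrid against T3 and 2 to 5 calls for the departure. The replicate number or lane as a block ended the 9 calls named beside their carriers, gave 1 (Slc25a27, hybrid against T3) and changed no other. The count of 5 for the departure came without control 2 or control 3, and the count of 2 for hybrid against T3 without hybrid 3. Of 247 uncalled pairs, 52 were called under 1 or more alternatives, 22 of them only with control libraries left out. The cause of these differences was not tested. Depth limits carriers near 1 CPM, such as Slc25a14, Slc25a36 and Slc25a40.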
